A study of Mus musculus with 12 samples.

Results

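Endothelial cells line the blood vessels of the lung, and the 10 genes described here are known from its capillaries and from the signals that endothelial cells send and receive. They are Esm1, Apold1, Aplnr, Apln, Tek, Kdr, Car4, Ednrb, Gpihbp1 and Plvap, found by symbol in a table of 49585 genes, where each stood once. All 10 reached 1 CPM (a read count scaled to library size) in each of the 12 libraries, and so were among the 16126 genes tested. Esm1 and Apold1 were chosen by their levels in KO and WT lungs of these same libraries, which separate the genotypes. Their differences between genotypes, and their responses within each genotype, are therefore described with no test, and counts of called genes cover the 8 others.

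Poly-A RNA was sequenced from whole lungs of mice labelled Balb/cJ that lacked RGS4 (KO) or carried it (WT), after exposure to Aspergillus fumigatus (Af), a mould, or to PBS as control. RGS4 is a protein that shortens signals from G protein-coupled receptors. The 4 groups held 3 libraries each, named here by group and library number: KO_Af 12 to 14, KO_PBS 9 to 11, WT_Af 18 to 20 and WT_PBS 15 to 17. The sources used here do not say how the knockout was made, in what form and by what route Af was given, how old the mice were or whether each library is a separate mouse, and p-values measure only the spread between these libraries. Every KO library has a lower number than every WT library, so an effect of genotype and an effect of library number cannot be told apart. Within each genotype every PBS library has a lower number than every Af library, so there an effect of Af cannot be told apart from it either.

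Recovered reads ran from 20708884 to 30229446 per library. Rgs4 itself lay between 0.848 and 1.47 CPM in KO_Af, 0.571 and 1.10 CPM in KO_PBS, 42.7 and 48.8 CPM in WT_Af, and 20.7 and 25.8 CPM in WT_PBS. The lungs held endothelial RNA in every library: all 14 markers shared by endothelial cells (Pecam1, Cdh5, Erg and others) were measured, none was at 0 in any group, and their summed level ran from 3139 to 3957 CPM in KO_Af, 5239 to 5599 CPM in KO_PBS, 3333 to 4072 CPM in WT_Af and 4338 to 5066 CPM in WT_PBS. A pair of libraries stood apart from others of their groups. Between KO_Af 12 and the other KO_Af libraries the chi-square of the counts per degree of freedom was 103 and 91.8, against 11.2 to 49.6 for the other pairs of replicates. The summed alveolar type 1 markers of KO_Af 12 were at 3108 CPM, against 1866 and 1602 CPM in KO_Af 13 and 14, and its summed alveolar type 2 markers at 21616 CPM, against 13373 and 14787 CPM. The other such library was WT_PBS 15. Its summed alveolar type 2 markers were at 27106 CPM, against 18568 and 16450 CPM in WT_PBS 16 and 17, and its summed fibroblast markers at 5358 CPM, against 2528 and 2569 CPM.

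In the mouse lung the capillary bed is built from a pair of endothelial cell types. Aerocytes, which cover the gas exchange surface, carry Car4, Ednrb, Apln and high Kdr, while general capillary cells, which renew the bed, carry Aplnr, Gpihbp1 and Plvap. Kdr is the main receptor for VEGF-A on endothelial cells, Tek the receptor for the angiopoietins, and Aplnr the receptor for the peptide made from Apln, so that aerocytes hold an apelin ligand and their neighbours its receptor.

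Under Af, the receptor genes Aplnr and Tek, the ligand gene Apln and Gpihbp1 were called lower in each genotype, Kdr and Plvap in KO, and Ednrb and Car4 in neither. In KO lungs 6 of the 8 genes fell under Af and none rose (Aplnr, Apln, Tek, Kdr, Gpihbp1 and Plvap; limma, Benjamini-Hochberg adjusted p under 0.05 over all 16126 genes). Lower calls made up 29.2% of all tested genes in KO lungs. In WT lungs 4 of the 8 fell and none rose (Aplnr, Apln, Tek and Gpihbp1), with lower calls at 25.6% of all tested genes. The median log2 difference of the 8 genes was -0.75 in KO and -0.49 in WT, against -0.02 over all tested genes in each. In KO lungs 7 of the 8 lay wholly lower under Af than under PBS (31.7% of all tested genes), and in WT lungs 4 of the 8 (32.7%). KO_Af 12 was the lowest KO_Af library for Tek, Kdr, Ednrb and Plvap. Without it the same 6 genes were called lower in KO, and the log2 differences were -1.64 for Tek, -1.38 for Kdr, -0.50 for Ednrb and -0.48 for Plvap. Averaged over both genotypes 6 of the 8 fell (median log2 -0.56), where lower calls made up 34.4% of all tested genes. The lungs were measured in bulk, and fewer endothelial cells cannot be told apart from less RNA of these genes per cell.

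**Figure D1:**
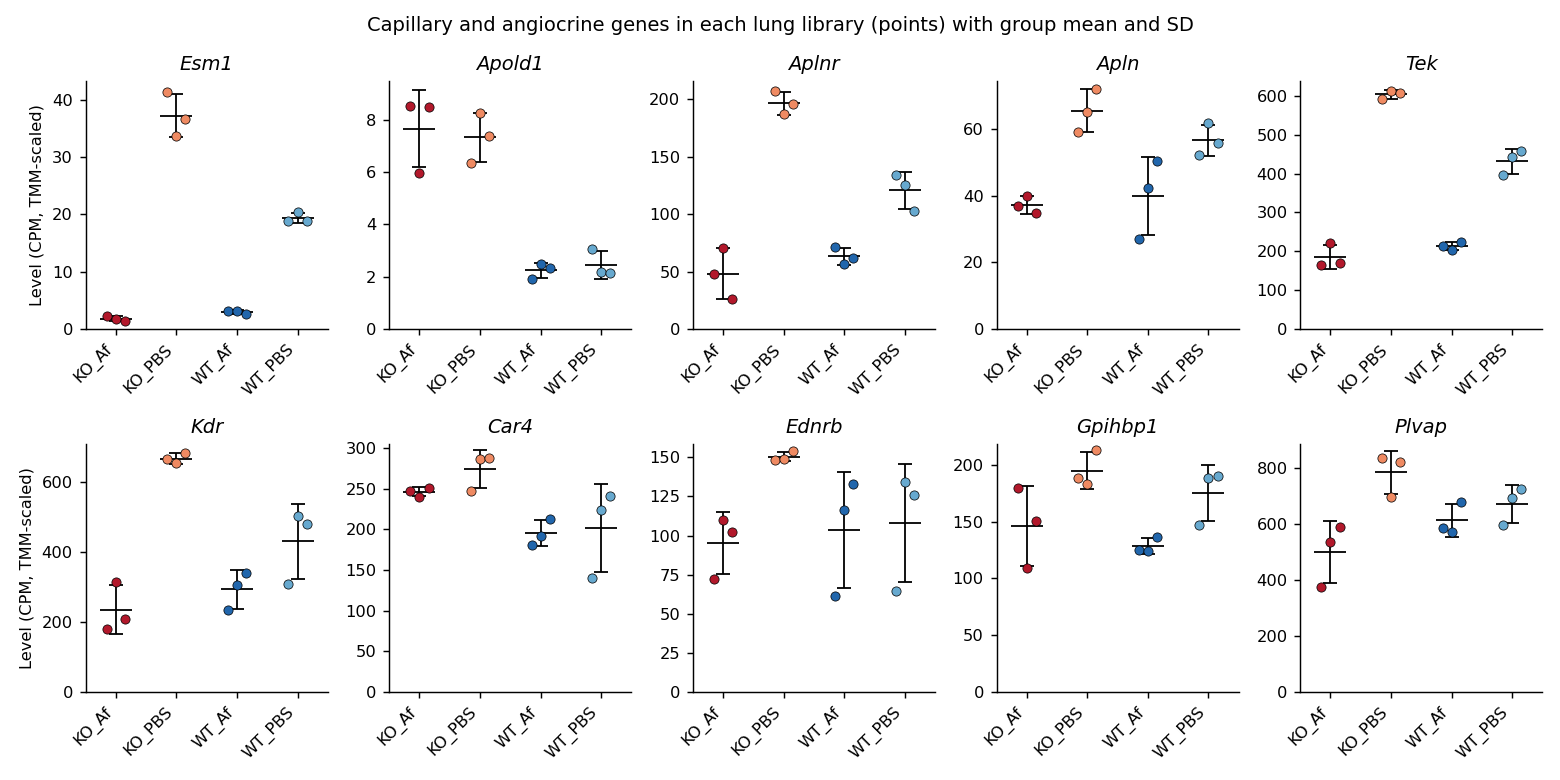
Level of each of the 10 genes (CPM, linear axis from 0) in each library, as points, with the group mean and SD (n = 3) in black, for KO_Af, KO_PBS, WT_Af and WT_PBS from left to right. Tek lies between 165 and 221 CPM in KO_Af, below all KO_PBS libraries (592 to 613 CPM), while Car4 overlaps between Af and PBS in each genotype.

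Tek, the angiopoietin receptor gene (chromosome 4, 94739289 to 94874976, plus strand, GRCm38), was at 165, 221 and 169 CPM in KO_Af 12, 13 and 14, against 592, 613 and 608 CPM in KO_PBS 9, 10 and 11. In WT lungs it was at 213, 204 and 224 CPM in WT_Af 18, 19 and 20, against 395, 442 and 458 CPM in WT_PBS 15, 16 and 17. Every Af library lay below every PBS library, and among the PBS libraries every KO library lay above every WT library. Tek fell 3.29-fold under Af in KO (log2 -1.72 ± 0.11 SE, limma adjusted p = 4.53e-07) and 2.02-fold in WT (log2 -1.01 ± 0.11 SE, adjusted p = 2.47e-05), and both calls held under all 23 alternatives, each library left out included.

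Kdr, the VEGF receptor gene (chromosome 5, 75932827 to 75978458, minus strand), was at 181, 314 and 208 CPM in KO_Af 12 to 14, against 665, 654 and 685 CPM in KO_PBS 9 to 11. In WT lungs it was at 233, 305 and 341 CPM in WT_Af 18 to 20, against 309, 504 and 480.1 CPM in WT_PBS 15 to 17. The KO groups were far apart, while in WT the lowest PBS library, WT_PBS 15, lay within the Af range. Kdr fell 2.93-fold under Af in KO (log2 -1.55 ± 0.22 SE, limma adjusted p = 1.33e-04) and was not called in WT (log2 -0.54 ± 0.22 SE, adjusted p = 0.0617). Without WT_PBS 15 it was called lower in WT as well (log2 -0.77, limma adjusted p = 0.0132), as it was without KO_Af 12 or KO_Af 13 and by DESeq2.

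Aplnr, the apelin receptor gene (chromosome 2, 85136225 to 85139923, plus strand), was at 48.2, 70.2 and 26.4 CPM in KO_Af 12 to 14, against 207, 187 and 195 CPM in KO_PBS 9 to 11. WT_Af 18 to 20 had 71.1, 56.7 and 62.1 CPM of Aplnr, against 134, 125 and 103 CPM in WT_PBS 15 to 17. All Af libraries lay below all PBS libraries in each genotype, and the KO_Af libraries were the most spread (coefficient of variation 45.3%, against 5.01% in KO_PBS). Aplnr fell 4.35-fold in KO (log2 -2.12 ± 0.26 SE, limma adjusted p = 3.98e-05) and 1.90-fold in WT (log2 -0.92 ± 0.26 SE, adjusted p = 0.0114).

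Apln, which encodes the apelin peptide (chromosome X, 48025146 to 48034853, minus strand), was at 36.8, 40.1 and 34.8 CPM in KO_Af 12 to 14, against 59.3, 65.3 and 72.2 CPM in KO_PBS 9 to 11. In WT it was at 27.1, 42.3 and 50.4 CPM in WT_Af 18 to 20, against 52.4, 61.7 and 55.8 CPM in WT_PBS 15 to 17. No Af library overlapped the PBS range of its genotype, though WT_Af 20 came within a few CPM of WT_PBS 15. Apln fell 1.75-fold in KO (log2 -0.81 ± 0.18 SE, limma adjusted p = 0.00245) and 1.46-fold in WT (log2 -0.54 ± 0.18 SE, adjusted p = 0.0247). The call in WT was lost without WT_Af 18, where the log2 difference was -0.29 (adjusted p = 0.0666), without WT_PBS 16 or WT_PBS 17 (adjusted p up to 0.0821) and with the WT groups alone (adjusted p = 0.0634). Ligand and receptor were thus both called lower under Af in each genotype over all 12 libraries. The other apelin receptor ligand gene, Apela, was below the level for testing, with group means of 0.101 to 0.22 CPM.

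Ednrb, the endothelin B receptor gene and an aerocyte marker (chromosome 14, 103814625 to 103844402, minus strand), was at 72.4, 110.1 and 102 CPM in KO_Af 12 to 14, against 148, 149 and 154 CPM in KO_PBS 9 to 11. WT_Af 18 to 20 had 61.5, 116 and 133 CPM of Ednrb, against 64.6, 134 and 126 CPM in WT_PBS 15 to 17. KO_Af lay wholly below KO_PBS, while in WT each group held a low library beside a higher pair and the groups overlapped. Ednrb was not called in KO (log2 -0.68 ± 0.31 SE, limma adjusted p = 0.0738) or in WT (log2 -0.07 ± 0.31 SE, adjusted p = 0.868). In KO, DESeq2 called it (adjusted p = 0.0439), and so did limma on the KO groups alone (adjusted p = 0.00880), without WT_Af 18 (0.0336) and without WT_PBS 15 (0.0334). Averaged over genotypes it was not called (log2 -0.38, adjusted p = 0.142) except without WT_PBS 15 (log2 -0.54, adjusted p = 0.0228).

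Of the genes of the capillary surface, Car4 encodes a carbonic anhydrase on the outer face of aerocytes that speeds the exchange of carbon dioxide (chromosome 11, 84957786 to 84966044, plus strand). It was at 248, 239.9 and 251 CPM in KO_Af 12 to 14, against 248, 287 and 289 CPM in KO_PBS 9 to 11. In WT it was at 181, 192 and 213 CPM in WT_Af 18 to 20, against 141, 224 and 241 CPM in WT_PBS 15 to 17. Af and PBS libraries overlapped in each genotype, and the log2 differences were -0.15 ± 0.17 SE in KO (limma adjusted p = 0.442) and -0.01 ± 0.17 SE in WT (adjusted p = 0.964). Without WT_PBS 15, the lowest library, Car4 was called lower in the average over genotypes (log2 -0.20, adjusted p = 0.0205).

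Gpihbp1, whose protein carries lipoprotein lipase to the capillary lumen (chromosome 15, 75596628 to 75599481, plus strand), was at 179.9, 109 and 151 CPM in KO_Af 12 to 14, against 189, 184 and 214 CPM in KO_PBS 9 to 11. The WT levels were 125, 124 and 137 CPM in WT_Af 18 to 20, against 147, 189 and 190.3 CPM in WT_PBS 15 to 17. The groups did not overlap, though KO_Af 12 came close to the lowest KO_PBS library. Gpihbp1 fell 1.36-fold in KO (log2 -0.44 ± 0.16 SE, limma adjusted p = 0.0344) and 1.35-fold in WT (log2 -0.44 ± 0.16 SE, adjusted p = 0.0392). Neither call held throughout: 7 of the 12 fits that each left out 1 library made it in KO and 5 in WT (adjusted p up to 0.130 in KO and 0.121 in WT). Without KO_Af 13, the lowest library, the log2 difference in KO was -0.24, and the call in KO was also lost by edgeR (adjusted p = 0.0567). By contrast, the average over genotypes was called in all 12 (log2 -0.44, adjusted p = 0.00481).

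Plvap encodes the protein of the diaphragms that span endothelial fenestrae and caveolae (chromosome 8, 71497765 to 71511752, minus strand). It was at 374, 537 and 589 CPM in KO_Af 12 to 14, against 837, 696 and 823 CPM in KO_PBS 9 to 11. The WT levels were 587, 573 and 680.3 CPM in WT_Af 18 to 20, against 596, 694 and 725 CPM in WT_PBS 15 to 17. All KO_Af libraries lay below all KO_PBS libraries, and the WT groups overlapped. Plvap fell 1.60-fold in KO (log2 -0.67 ± 0.16 SE, limma adjusted p = 0.00395) and was not called in WT (log2 -0.13 ± 0.16 SE, adjusted p = 0.522).

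Esm1, also called endocan, is secreted by endothelial cells at sprouting vessel tips and was the member with the steepest Af response (chromosome 13, 113209659 to 113218098, plus strand). It was at 2.28, 1.75 and 1.35 CPM in KO_Af 12 to 14, against 41.3, 33.8 and 36.7 CPM in KO_PBS 9 to 11. In WT it was at 3.07, 3.21 and 2.66 CPM in WT_Af 18 to 20, against 18.9, 20.3 and 18.8 CPM in WT_PBS 15 to 17. No 2 groups overlapped: KO_PBS was highest, then WT_PBS, then WT_Af, and KO_Af was lowest, so KO stood above WT under PBS and below WT under Af. The log2 differences, given as a description, were -4.06 for Af in KO, -2.51 for Af in WT, -0.62 for KO against WT under Af and 0.92 under PBS. The size of the average of the 2 Af responses does not depend on the genotype pattern that picked the gene. By that measure Esm1 fell 9.76-fold (log2 -3.29 ± 0.10 SE, limma adjusted p = 1.70e-09, called without any of the 12 libraries in turn). The SE and p-value use the spread within the same groups, which the pick could have favoured as small. In KO_Af its level rested on 35 to 58 reads per library.

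Apold1, an early response gene of endothelial cells (chromosome 6, 134981718 to 134986836, plus strand), was at 8.53, 5.97 and 8.48 CPM in KO_Af 12 to 14, against 6.36, 8.25 and 7.38 CPM in KO_PBS 9 to 11. For WT lungs the values were 1.92, 2.49 and 2.32 CPM in WT_Af 18 to 20, against 3.06, 2.17 and 2.13 CPM in WT_PBS 15 to 17. All 6 KO libraries lay above all 6 WT libraries, and Af and PBS overlapped in each genotype. The description of the pattern that picked it is a log2 difference of 1.56 for KO against WT under Af and 1.41 under PBS. Its averaged Af response was not called (log2 -0.02 ± 0.13 SE, limma adjusted p = 0.878).

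The 250 bases before the RefSeq start (GRCm38.p6) are printed for Tek, Kdr and Esm1, which had the largest averaged falls under Af among the 7 members that the promoter table held. Capitals in Tek (chr4:94739039-94739288, plus strand) and Esm1 (chr13:113209409-113209658, plus strand) mark a run of 12 bases that both hold. Capitals in Kdr (chr5:75978456-75978705, minus strand) mark the GC box letters GGGCGG read on the other strand. Each is written 5′ to 3′ on the strand of its gene.
Tek: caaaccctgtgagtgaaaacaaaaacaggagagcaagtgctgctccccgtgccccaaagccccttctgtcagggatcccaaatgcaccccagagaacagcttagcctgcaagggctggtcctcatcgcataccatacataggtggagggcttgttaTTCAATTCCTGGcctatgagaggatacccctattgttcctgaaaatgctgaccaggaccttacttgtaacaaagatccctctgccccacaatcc
Kdr: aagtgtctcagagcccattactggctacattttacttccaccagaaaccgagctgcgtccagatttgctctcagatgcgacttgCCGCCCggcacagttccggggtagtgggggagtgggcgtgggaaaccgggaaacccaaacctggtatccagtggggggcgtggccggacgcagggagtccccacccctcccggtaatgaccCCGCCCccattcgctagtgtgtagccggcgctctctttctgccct
Esm1: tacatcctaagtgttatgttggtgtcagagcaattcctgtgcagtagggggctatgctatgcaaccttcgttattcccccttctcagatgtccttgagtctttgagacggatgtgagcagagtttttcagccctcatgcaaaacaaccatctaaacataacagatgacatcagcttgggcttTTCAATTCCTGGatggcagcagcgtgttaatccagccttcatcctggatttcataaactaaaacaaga
The shared run TTCAATTCCTGG lay 94 to 83 bases before the start in Tek and 68 to 57 bases before it in Esm1. It was the longest run common to any of the 21 pairs of member windows, searched on both strands, and 7 of 32851 windows in the table held it (0.0213%). Because the run was picked as the longest, that share does not measure how often a pair of windows shares some run of 12 bases. The Kdr window was richer in G and C (61.6%) than those of Tek (51.2%) and Esm1 (44%), with GC boxes 166 to 161 and 45 to 40 bases before the start. GGGCGG was present on either strand in 32.7% of all windows and in 2 of the 7 member windows, Kdr and Apln. The letters TATAAA, in 12.4% of all windows, the hypoxia response core ACGTG, in 16.6%, and the AP-1 site TGANTCA, in 6.75%, were in none of the 3 printed windows, which says only that these letters are not in these stretches.

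**Figure D2:**
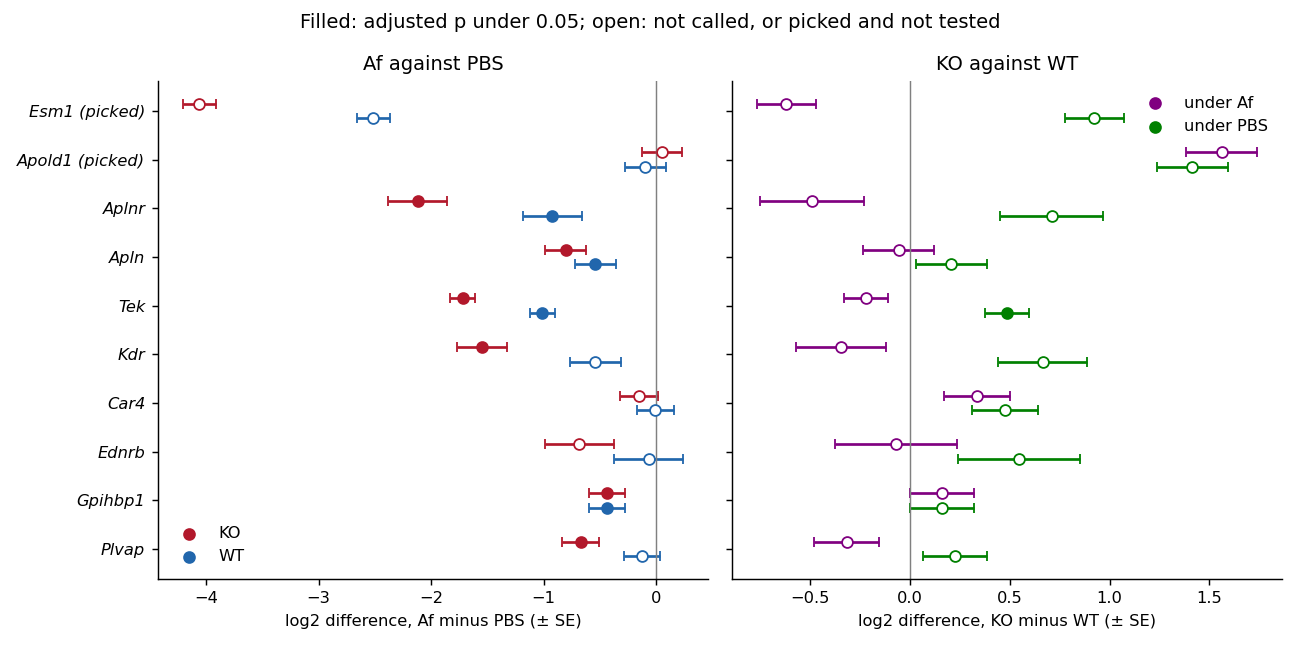
log2 differences with SE for the 10 genes, Af minus PBS (left; KO in red, WT in blue) and KO minus WT (right; under Af in purple, under PBS in green). Filled points passed an adjusted p under 0.05; Esm1 and Apold1 are open because they were picked and not tested, and Tek under PBS (0.49) is the only filled point on the right.

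The genotypes were compared under each exposure to ask what the loss of Rgs4 changes in lungs with and without Af. These comparisons share their libraries with the Af comparisons above: a high KO_PBS level enters both. Under PBS all 8 genes had a higher mean log2 level in KO than in WT (median difference 0.48, against 0.01 over all tested genes), and 5 of the 8 did not overlap between genotypes (Aplnr, Tek, Kdr, Car4 and Ednrb), where 17.4% of all tested genes lay wholly higher in KO. Tek was called, and no other of the 8 (log2 0.49 ± 0.11 SE, a 1.40-fold higher level in KO, limma adjusted p = 0.0354), where higher calls made up 1.9% of all tested genes. The call was lost without each of the 3 KO_PBS or 3 WT_PBS libraries and without WT_Af 19 or 20 (adjusted p up to 0.137), while the difference stayed between 0.42 and 0.53. DESeq2 (adjusted p = 8.49e-04) and edgeR (adjusted p = 0.0347) called it too.

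Aplnr had a log2 difference of 0.71 ± 0.26 SE between KO and WT under PBS (limma adjusted p = 0.176) and Kdr of 0.66 ± 0.22 SE (adjusted p = 0.141). With the PBS groups alone (adjusted p = 0.0115), or without KO_Af 14 (adjusted p = 0.0246), limma called Aplnr higher in KO. Car4 had 0.48 ± 0.17 SE (adjusted p = 0.151) and Ednrb 0.55 ± 0.31 SE (adjusted p = 0.403). These gaps rested in part on WT_PBS 15, the library with the high alveolar type 2 and fibroblast sums, which was the lowest WT_PBS library for Kdr, Car4, Ednrb, Gpihbp1, Plvap, Tek and Apln. Without it the differences under PBS were 0.44 for Kdr, 0.24 for Car4 and 0.21 for Ednrb, and 0.79 for Aplnr, which was highest in that library. The part of those other cells in the values was not tested.

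Under Af none of the 8 was called between genotypes by limma, edgeR or DESeq2, and none had an unadjusted p under 0.05 by limma, where 0.0868% of all tested genes were called in either direction. The median log2 difference of the 8 genes, KO against WT, was -0.15. Car4 was the exception in its levels, with every KO_Af library (239.9 to 251 CPM) above every WT_Af library (181 to 213 CPM), as under PBS, at a log2 difference of 0.33 ± 0.17 SE that did not pass (adjusted p = 0.470). Its separation made it 1 of 8 genes wholly higher in KO under Af, against 7.66% of all tested genes.

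The Af response in KO minus that in WT was below 0 for all 8 genes (median log2 -0.58), from -1.20 for Aplnr and -1.01 for Kdr to -0.00 for Gpihbp1. By limma none of the 8 passed over all genes, with 4 at an unadjusted p under 0.05 (Aplnr, Tek, Kdr and Plvap), against 10.9% of all tested genes at that level and 0.0062% called. Tek came nearest (log2 -0.71 ± 0.16 SE, limma adjusted p = 0.118). DESeq2 called 1 of the 8, Tek (adjusted p = 0.00283), and edgeR none. Without KO_Af 13, limma called Tek (log2 -0.84, adjusted p = 0.0125) and Aplnr (log2 -1.52, adjusted p = 0.0351). A steeper response in KO than in WT was therefore not shown for any of the 8 by limma over all 12 libraries.

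Set beside the endothelial markers as a whole, the members ranged from genes called lower than the markers, over genes not called either way, to genes called higher. Of the 14 shared endothelial markers 9 fell under Af in KO and 7 in WT, and none rose (median log2 -0.43 in KO and -0.42 in WT). For these and for the lists below, lower calls under Af made up 29.2% of all tested genes in KO and 25.6% in WT. The shares called higher under Af are not given here. Erg, an endothelial transcription factor, had differences of -0.99 in KO and -0.59 in WT, and Ramp2, a partner of the adrenomedullin receptor, of -0.71 and -0.59, all called. When each library was rescaled to the mean log2 level of these 14 markers, a step chosen after the data were seen, Esm1 (log2 -2.85), Aplnr (-1.09), Tek (-0.93) and Kdr (-0.61) were still called lower in the average over genotypes. On that scale Apln (-0.24, adjusted p = 0.0639), Gpihbp1 (-0.00, adjusted p = 0.979), Plvap (0.03, adjusted p = 0.785) and Ednrb (0.06, adjusted p = 0.787) were not called, and Car4 (0.35, adjusted p = 0.00738) and Apold1 (0.41, adjusted p = 0.0192) were called higher. Esm1 and Apold1 were picked on these libraries, and the pick could have favoured a small spread within groups, and with it their calls. Since the markers fell, the rescaling raises the Af response of every gene, and higher means only higher than the markers. As deposited, Car4 was at -0.08 and Apold1 at -0.02, against a median of -0.02 over all tested genes. The share of all genes called on the marker scale is not given here. Tek kept its call within each genotype on that scale (-1.22 in KO and -0.64 in WT), Aplnr (-1.62) and Kdr (-1.05) in KO, and the call of Tek between genotypes under PBS was lost (log2 0.39, limma adjusted p = 0.116).

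**Figure D3:**
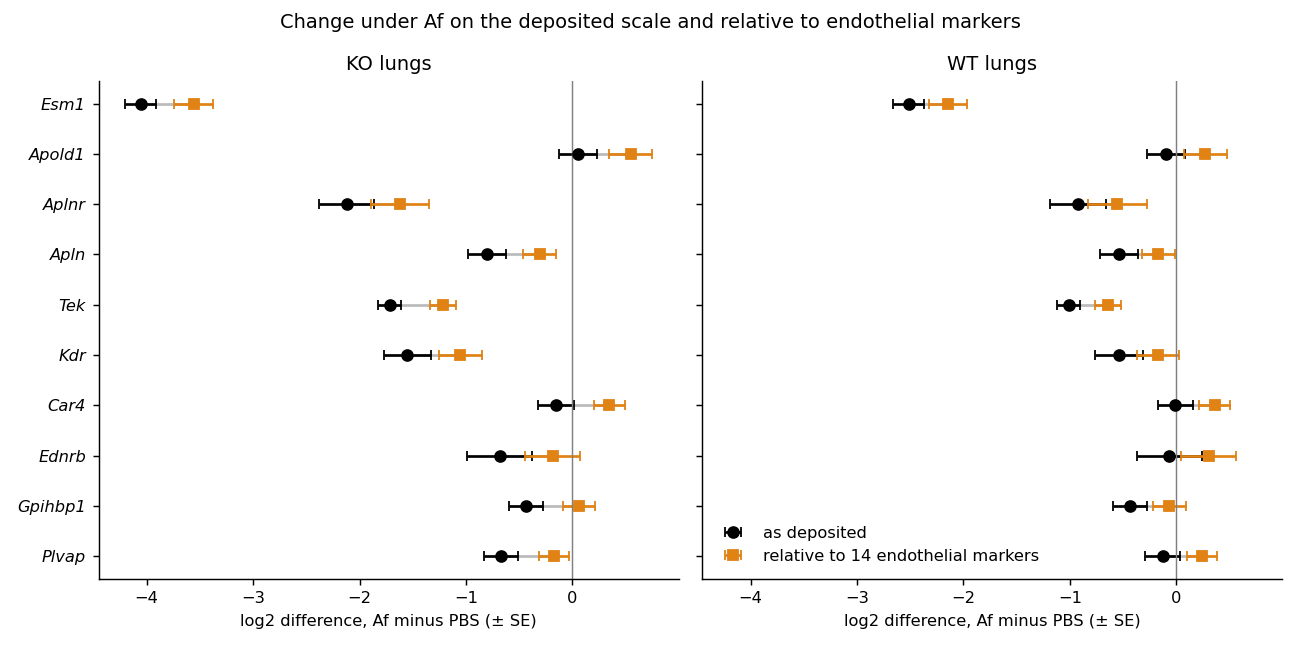
Af minus PBS on the log2 scale with SE in KO (left) and WT (right) lungs, as deposited (black circles) and relative to the mean of 14 endothelial markers (orange squares). Relative to the markers, Tek remains at -1.22 in KO and -0.64 in WT, while Gpihbp1 lies at 0.06 and -0.07.

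The other markers of the 2 capillary types were also lower under Af. Of 5 further aerocyte markers 4 fell in KO and 5 in WT (median log2 -1.41 and -0.78). Tbx2, a transcription factor, averaged 111 ± 13.5 CPM in KO_Af against 295 ± 18.3 CPM in KO_PBS, and 111 ± 9.31 CPM in WT_Af against 214 ± 32.7 CPM in WT_PBS (SD, n = 3). Chst1, a sulfotransferase gene, fell by 1.51 and 0.78 on the log2 scale in KO and WT, and Fibin by 0.53 and 1.35. Aerocyte markers were thus split under Af. Car4 and Ednrb were called in neither genotype and Kdr was called lower in KO alone. Apln and these 3, named for their small p under Af, were called lower in each genotype. Of 3 further general capillary markers 2 fell in each genotype (median log2 -1.27 in KO and -0.61 in WT). Glp1r, the receptor for glucagon-like peptide 1, differed by -1.84 in KO and -0.87 in WT, both called. Kit, the stem cell factor receptor, differed by -1.27 in KO (called) and -0.39 in WT (not called, adjusted p = 0.0534), and Cd93 by -0.35 in KO (not called, adjusted p = 0.165) and -0.61 in WT (called). Between genotypes under PBS none of these 8 genes was called by limma or edgeR, and 6 had an unadjusted p under 0.05 by limma (17.3% of all tested genes). DESeq2 called 3, Glp1r, Kit and Tbx2, all higher in KO (limma log2 1.05, 0.57 and 0.47). Others went the other way: 2 of the 5 aerocyte and 1 of the 3 general capillary markers had a lower mean log2 level in KO. Under Af none of the 8 was called by the 3 tools, with 1 at an unadjusted p under 0.05 by limma (11.2% of all tested genes).

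**Figure D4:**
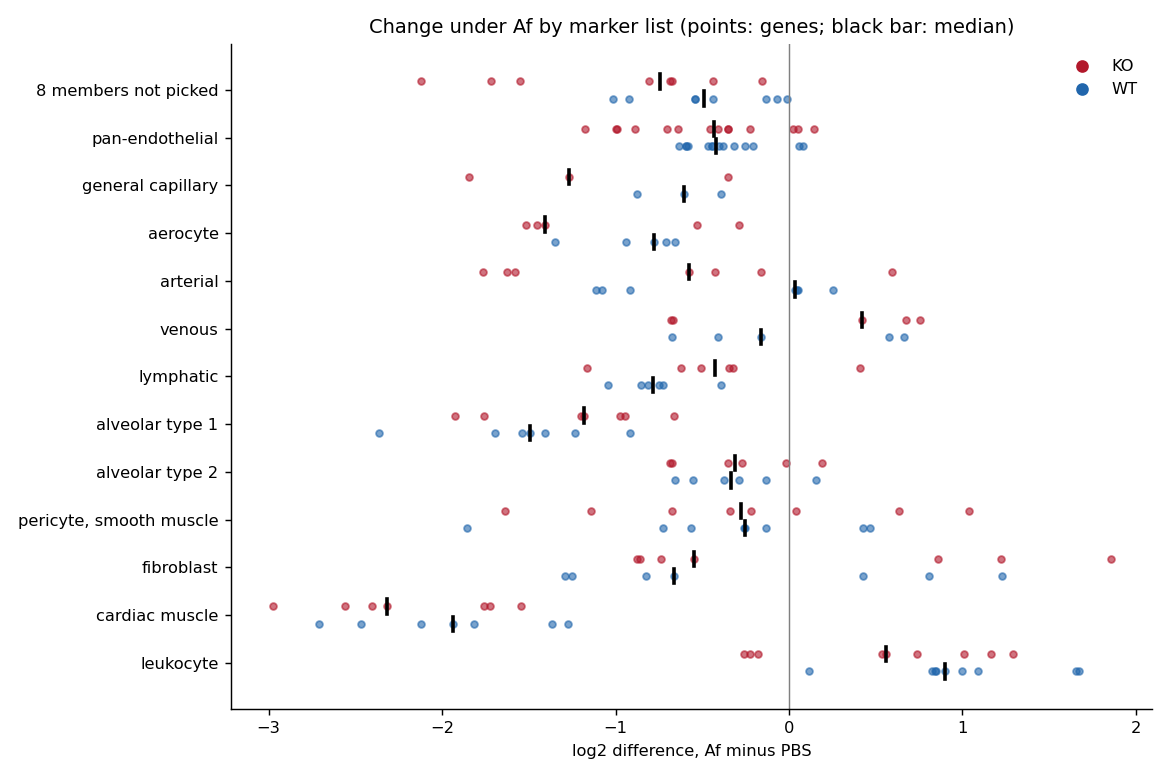
log2 difference, Af minus PBS, of each gene (points; KO in red above, WT in blue below) of the 8 members not picked and of 12 marker lists, with the list median as a black bar. The medians of the 8 members lie at -0.75 in KO and -0.49 in WT, and those of leukocyte markers at 0.56 and 0.90.

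Around Kdr, the VEGF family moved mostly down. Of 9 other genes of the axis 6 fell and 2 rose in KO, and 5 fell and 1 rose in WT (median log2 -0.72 and -0.80). Vegfa, the main ligand of Kdr, averaged 254 ± 35.4 CPM in KO_Af against 717 ± 149 CPM in KO_PBS, and 308 ± 35.9 CPM in WT_Af against 728 ± 93.8 CPM in WT_PBS. It fell by 1.48 on the log2 scale in KO and 1.24 in WT. The decoy receptor gene Flt1 (-1.01 in KO and -0.80 in WT), the coreceptor gene Nrp1 (-1.28 and -0.85), the lymphatic receptor gene Flt4 (-1.17 and -0.85) and the ligand gene Vegfd (-0.72 and -0.89) fell as well. Pgf, a ligand that binds Flt1 and not Kdr, went the other way and rose 4.01-fold in KO and 2.73-fold in WT. Vegfb was called lower (-0.55) and Vegfc higher (0.42) in KO, and neither was called in WT (-0.29 and -0.07).

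Around Tek, 4 of 6 other genes of the angiopoietin axis fell in each genotype and none rose (median log2 -0.75 in KO and -0.70 in WT). Angpt1, the activating ligand, averaged 37.8 ± 3.39 CPM in KO_Af against 116 ± 5.66 CPM in KO_PBS, and 42.6 ± 1.32 CPM in WT_Af against 107 ± 3.28 CPM in WT_PBS (log2 -1.61 and -1.33, both called). Ptprb, the phosphatase that damps Tek, differed by -1.65 in KO and -1.23 in WT, and the partner receptor gene Tie1 by -0.83 and -0.51, all called. Angpt2, the ligand that mostly opposes Angpt1, was called in KO (-0.66, adjusted p = 0.0136) and not in WT (-0.08, adjusted p = 0.755). Angpt4 was not called in KO (0.11, adjusted p = 0.709) and was called lower in WT (-0.89, adjusted p = 0.00712), with group means of 0.960 to 2.24 CPM. The response of no gene of the axis was called as different between genotypes by limma.

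Around Ednrb, 3 of 5 tested genes of the endothelin axis fell and 1 rose in each genotype. Edn3, the ligand that binds Ednrb preferentially, averaged 6.90 ± 2.84 CPM in KO_Af against 25 ± 6.76 CPM in KO_PBS, and 6.69 ± 2.49 CPM in WT_Af against 25.2 ± 2.86 CPM in WT_PBS (log2 -1.83 and -1.89, both called). The other receptor gene, Ednra, fell by 0.90 in KO and 0.61 in WT, and the converting enzyme gene Ece1 by 0.96 and 0.59, while Ece2 rose by 1.21 and 0.95. Edn1 was not called (0.52 in KO and 0.26 in WT).

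Around Gpihbp1, Lpl, the lipase that it carries, fell by 0.69 in KO and 0.79 in WT, and the endothelial lipase gene Lipg by 0.82 and 1.09, which made 2 of 5 tested genes lower and 1 higher in each genotype. The inhibitor gene Angptl4 averaged 188 ± 45.6 CPM in KO_Af against 59.8 ± 14 CPM in KO_PBS, and rose by 1.64. In WT it was at 124 ± 11.7 CPM in WT_Af and 90.7 ± 19.7 CPM in WT_PBS, with a log2 difference of 0.47 that was not called (adjusted p = 0.0811). Its response was called as different between genotypes by DESeq2 and not by limma or edgeR. Angptl8 was called higher in WT (0.87) and not in KO (0.72, adjusted p = 0.0623), and Lmf1, which matures the lipase, in neither (-0.11 in KO and -0.02 in WT).

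Around Plvap, 5 of 6 caveola genes fell in each genotype and 1 rose in KO (median log2 -0.81 in KO and -0.82 in WT), with Cav1 at -0.97 and -1.09 and Cavin2 at -1.26 and -1.24. Caveola genes are also expressed by alveolar type 1 cells. Of 9 genes known from sprouting tip cells beside Esm1, 6 fell and 2 rose in KO, and 3 fell and 1 rose in WT. Igfbp3 fell by 2.57 and 2.94 and the Notch ligand gene Dll4 by 1.63 and 0.62, while Adm, which encodes the vasodilator adrenomedullin, rose by 2.15 and 1.87. Of 7 other angiocrine genes 4 rose and 2 fell in each genotype. The 2 of 7 that fell lie near the shares of lower calls over all tested genes (29.2% in KO and 25.6% in WT), and the shares called higher are not given here. Il6 rose by 4.01 and 3.73, while Hgf differed by -1.56 and -0.78 and Bmp6 by -2.05 and -0.96, called in each. Beside Car4, the carbonic anhydrase gene Car14 fell 2.27-fold in KO and 1.94-fold in WT, and Car13 rose 3.69-fold and 2.38-fold.

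Of all these neighbours of the members, those called between genotypes were few. Under PBS the endothelial factor gene Erg was higher in KO (log2 0.50, limma adjusted p = 0.0155), at 152 ± 6.79 CPM in KO_PBS and 107 ± 10.9 CPM in WT_PBS, as was the chemokine receptor gene Cxcr4 (log2 0.78, adjusted p = 0.0199), which was named after its values were seen. Under Af the arterial Notch target gene Hey1 was lower in KO (log2 -0.76, adjusted p = 0.0212), with 30.8 ± 2.58 CPM in KO_Af against 52.9 ± 7.12 CPM in WT_Af. Of the 31 tested genes of the VEGF, angiopoietin, endothelin, lipase and caveola lists, limma and edgeR called none between genotypes under either exposure, with 5 at an unadjusted p under 0.05 under Af and 4 under PBS by limma (11.2% and 17.3% of all tested genes), and DESeq2 called 1 under Af and none under PBS.

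Other vessel types and other cells moved with Af too. Of 7 arterial markers 5 fell and 1 rose in KO, and 3 fell in WT, among them Bmx (-1.76 and -1.11) and Efnb2 (-1.63 and -0.92). Of 6 lymphatic markers 2 fell in KO and 5 in WT, and of 5 venous markers 2 fell and 1 rose in each. With lower calls at 29.2% of all tested genes in KO and 25.6% in WT, the venous counts and the lymphatic count in KO lie not far above those shares. All 7 alveolar type 1 markers fell in each genotype, with their summed level at 1602 to 3108 CPM in KO_Af, 3294 to 5505 CPM in KO_PBS, 1524 to 2510 CPM in WT_Af and 4568 to 5252 CPM in WT_PBS. Of 9 leukocyte markers 4 were called higher in KO and 6 in WT, with none lower. The share of all tested genes called higher under Af is not given here, so these counts are not set against it. The summed leukocyte markers were at 994 to 1376 CPM in KO_Af, 717 to 846 CPM in KO_PBS, 984 to 1161 CPM in WT_Af and 509 to 586 CPM in WT_PBS. Of 7 cardiac muscle markers 5 fell in KO and 2 in WT, where the count lies near the share of all tested genes (25.6%). The summed cardiac muscle markers were at 125 to 565 CPM in KO_Af, 1098 to 1626 CPM in KO_PBS, 139.6 to 623 CPM in WT_Af and 1012 to 1890 CPM in WT_PBS. The part of these other vessels and cells in the levels of the members was not tested.

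Under PBS, where Tek was higher in KO, 2 of 9 leukocyte markers were higher too (Ptprc by log2 0.82 and Ccr2 by 0.97, Ptprc named after its values were seen). In the same comparison 2 of 4 glucocorticoid target genes were lower in KO: Fkbp5 was at 15.5 ± 2.64 CPM in KO_PBS and 139 ± 16.1 CPM in WT_PBS, and Zbtb16, named after its values were seen, was at 18.2 ± 4.50 CPM in KO_PBS and 241 ± 18.5 CPM in WT_PBS. Of 15 immediate early genes 1 was lower, Atf3 (log2 -1.34), also named after its values were seen, and of 8 pericyte and smooth muscle genes 1 was lower, Abcc9 (log2 -0.52). The share of all tested genes called lower in KO under PBS is not given here, so these lower counts are not set against it. The part of these genes in the difference of Tek was not tested.

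Levels of different genes were compared per kb of exon. Plvap was highest in all 4 groups, at 251 CPM per kb in KO_Af, 395 in KO_PBS, 309 in WT_Af and 338 in WT_PBS, without overlap with Car4, the next in each. By group mean, Apold1 and Esm1 were the lowest pair in each group, with Esm1 below Apold1 in KO_Af (0.855 and 2.15 CPM per kb) and above it in the other 3 groups. In KO_PBS the libraries of Esm1 (16.1 to 19.7 CPM per kb) overlapped those of Apln (18.8 to 22.9 CPM per kb). Tek and Gpihbp1 changed places: Tek was the higher of the pair in KO_PBS (128 against 76.5 CPM per kb) and WT_PBS (91.7 against 68.6), and Gpihbp1 in WT_Af (50.4 against 45.4), without overlap of libraries. In KO_Af the mean of Gpihbp1 was the higher (57.4 against 39.3), but the libraries overlapped, and in KO_Af 13 Tek was above Gpihbp1. Neighbours in the order whose libraries overlapped in each group included Kdr with Ednrb under Af in both genotypes, and Ednrb with Aplnr there.

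Within groups some pairs of members varied together and others in opposite directions. Of the 45 pairs of the 10 genes, 25 had a positive and 20 a negative correlation of their log2 levels across the 12 libraries once the group means were taken out (median r = 0.128). The highest were Kdr and Ednrb with Pearson r = 0.885, Tek and Kdr with 0.831, Apln and Ednrb with 0.757 and Car4 and Ednrb with 0.735. The lowest were Tek and Apold1 with -0.756, Esm1 and Plvap with -0.612, Apold1 and Kdr with -0.609 and Aplnr and Gpihbp1 with -0.496. These values are a description of libraries that share their scaling, with 3 libraries behind each mean, and the 2 lowest of them for Ednrb were WT_Af 18 and WT_PBS 15.

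Some tested genes followed a member closely across the 12 libraries, as measured by Pearson r of the log2 levels, which mostly reflects the group pattern. Closest to Esm1 were Thra, a thyroid hormone receptor gene (r = 0.992), Raver2 (0.992) and the carboxypeptidase gene Cpm (0.990). The level of Thra was 52.3 ± 3.99 CPM in KO_Af, 167 ± 1.84 CPM in KO_PBS, 61 ± 5.35 CPM in WT_Af and 139 ± 7.84 CPM in WT_PBS, the same order of groups as Esm1. Closest to Apold1 were Ccdc190 (0.970), Mtm1 (0.941) and Sptlc1 (0.906), with Ccdc190 at 11.7 ± 1.43 CPM in KO_Af, 8.83 ± 0.551 CPM in KO_PBS, 0.343 ± 0.131 CPM in WT_Af and 0.391 ± 0.165 CPM in WT_PBS. Ccdc190 thus separated the genotypes under each exposure. Whether it or the other genes like Apold1 lie near Rgs4, in DNA that could differ between the genotypes, was not tested. Kdr was followed most closely by Zfp287 (0.977), Bmp6 (0.975) and Pitpnc1 (0.973), and Aplnr by Grtp1 (0.990), Slitrk6 (0.982) and Plxdc1 (0.981). Bmp6, which encodes a secreted factor of endothelial cells, was at 35.7 ± 11.5 CPM in KO_Af, 145 ± 5.69 CPM in KO_PBS, 49.4 ± 6.12 CPM in WT_Af and 97.6 ± 22 CPM in WT_PBS.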

How the data were processed

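Per the labels' protocols, lung RNA was purified with Qiagen RNEasy and made into libraries with the Illumina TruSeq mRNA kit. The submitters' processing notes name cutadapt 1.18, STAR 2.7.6a and RSEM 1.3.0 and the builds GRCm38 and GRCh38, with no role stated. The authors deposited a signal per gene and library, CPM scaled by TMM as the table is named. Divided by what 1 read is worth in its library, every value (100%, at a tolerance of 0.01 reads) came out whole, which gave back the counts. A count of 0 would allow up to 3 reads, for counting error only.

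The filter kept the 16126 genes that reached 1 CPM in 3 or more of the 12 libraries. limma 3.58.1 (R 4.3.3) was run on log2(CPM + 0.5), which understates changes of low genes, with a mean-variance trend, 4 groups in 1 fit and 8 residual degrees of freedom. Genes with a Benjamini-Hochberg adjusted p under 0.05 were called. The recovered counts went to edgeR 4.0.16 and DESeq2 1.42.0 as alternatives, which called 9315 and 9584 genes for Af in KO, against 9331 by limma. The fit was tested on simulated data. Coordinates and exon lengths are from GENCODE M21 on GRCm38, and genes listed under older symbols were matched by identifier. The sources used here do not say if reads were counted by strand, and genes that overlap another are uncertain for that reason.

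The members, the gene lists, the motifs and the tests were chosen with earlier results of these data known. Named genes were the members, the genes of the pathway axes, from each other list up to 3 genes with the smallest p in the averaged Af response (the 2 highest in level where none was called), and the 3 genes most like each of 4 members. No library was a copy of another: the chi-square per degree of freedom between replicates was 11.2 or more.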

Additional observations from a re-analysis of the deposited data

Results flagged for a closer look

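Esm1 had opposite genotype differences under the 2 exposures. It was lower in KO than in WT under Af (1.35 to 2.28 CPM in KO_Af, 2.66 to 3.21 CPM in WT_Af) and higher under PBS (33.8 to 41.3 CPM in KO_PBS, 18.8 to 20.3 CPM in WT_PBS), with no overlap in either. The difference between these differences was -1.54 on the log2 scale. It was not tested, because Esm1 was picked for this pattern.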

How the results depend on the processing

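No paired analysis was possible because each library number occurs once, so no number is shared between groups. Leaving out each library in turn, limma called 0 to 2 of the 8 members for KO under PBS, 2 to 5 for Af in WT and 0 to 2 for the interaction. Over all tested genes it called 131 to 1230 for KO under PBS, 7081 to 9779 for Af in WT, 3 to 110 for KO under Af and 0 to 187 for the interaction. The fit without WT_PBS 17 and KO_Af 12 called 2 members for Af in WT, with the count over all genes not given here. For KO under PBS the unfiltered fit called 0 members and 373 genes, the compared groups alone 2 members and 1124 genes, and DESeq2 1216 genes. For KO under Af the counts were 8 genes with 1 CPM required in all 12 libraries, 3 with the groups alone and 187 by DESeq2. Interaction calls were 2 genes at a pseudocount of 1, 5 with median-of-ratios scaling, 362 genes and 1 member by DESeq2, and 0 genes with no filter, with the 12-library filter or with no variance trend. The cause was not tested.

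Endothelial-marker scaling, chosen after the data were seen, called 3 members for Af in KO, 2 for Af in WT (Tek lower, Car4 higher) and 0 for KO under PBS. The share of all genes called on that scale is not given here. The scaling raises the Af response of every gene. It reversed the averaged Af response of Apold1 (0.41), Car4 (0.35), Ednrb (0.058) and Plvap (0.0324), that in KO of Car4 (0.34) and Gpihbp1 (0.0594), that in WT of Apold1 (0.27), Car4 (0.36), Ednrb (0.30) and Plvap (0.24), and the interaction of Gpihbp1 (0.13).

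Other reversals were of small values that were not called. Gpihbp1 had an interaction of 0.00298 by median-of-ratios scaling, 0.0295 by edgeR and 0.0417 by DESeq2. Without WT_PBS 17 and KO_Af 12, the Af response was -0.0314 for Apold1 in KO, and 0.14 for Car4 and 0.0773 for Ednrb in WT, and KO under Af was 0.11 for Ednrb and -0.00205 for Gpihbp1. Over the fits that each left out 1 library, ranges on the log2 scale that crossed 0 were, for Af averaged, -0.0694 to 0.0559 (Apold1); for Af in KO, -0.0418 to 0.21 (Apold1); for Af in WT, -0.17 to 0.0458 (Apold1), -0.25 to 0.14 (Car4), -0.40 to 0.27 (Ednrb) and -0.20 to 0.10 (Angpt2); for KO under Af, -0.31 to 0.13 (Apln), -0.41 to 0.15 (Ednrb) and -0.00205 to 0.36 (Gpihbp1); and for the interaction, -0.29 to 0.10 (Car4) and -0.16 to 0.19 (Gpihbp1). Depth limits Esm1 in KO_Af, at 35 to 58 reads.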
